A study of Mus musculus with 31 samples.

Results

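The transcripts of the mitochondrial genome were taken as every gene symbol beginning with mt-. The whole tumour table lists 37 such symbols among 54456 genes, namely 13 protein-coding genes, 2 ribosomal RNAs (rRNAs) and 22 transfer RNAs (tRNAs). The sorted cell table lists 15 of them among 12461 entries, the 13 protein-coding genes and both rRNAs. All 15 passed the filter on low values in both tables. They were taken by symbol alone, though with earlier results of these data known.

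Tumours were grown from AB1-mCherry, a murine mesothelioma line that carries a red fluorescent protein and whose brightest cells had been sorted before use. All 31 libraries came from female BALB/c mice, 12 weeks old and given no treatment, in which a subcutaneous (SC), peritoneal (IP) or pleural (PL) tumour was collected at day 10. Whole tumours gave 5 SC, 5 IP and 6 PL libraries, and CD45-negative, mCherry-positive cells sorted from tumours gave 5 libraries per site. The question was how the site of growth changes the transcripts of the tumour and of its cancer cells. All groups share this 1 line, so the sites differ within a single genetic background. Replicates are named by the mouse number in the sample titles, which for 3 whole IP tumours differs from the number in the library name (mice 2, 3 and 4 are libraries 3, 4 and 5), and mice of different sites are different animals.

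The mitochondrial genome is a small circle of DNA held in many copies per cell. It is transcribed from both strands into long precursors, which are cut at the tRNAs that lie between the other genes, so that the level of each mature RNA depends on its own stability as well as on transcription. Its proteins are core subunits of respiratory complexes I, III and IV and of the ATP synthase (complex V), while all remaining subunits, all of complex II and the proteins that transcribe, process and translate mitochondrial RNA come from nuclear genes. Insertions of mitochondrial DNA in nuclear chromosomes, called nuclear copies here, are annotated as pseudogenes and can share reads with the true genes.

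The nuclear copies matter for reading every value below, so the sequences of 2 members are shown beside them. Sequences and positions are from the GENCODE transcripts and annotation of build GRCm38, an older build than the GRCm39 named in the submitters' processing notes, and copies were matched to the tables by symbol. mt-Nd3, a complex I gene (chrM:9459-9806, plus strand, no introns), differs from its copy Gm28438 on chromosome 1 at 1 base in the 345 bases aligned, T3C, counted from the first base of mt-Nd3. The first 60 bases are chrM:9459-9518 for the gene and chr1:24613060-24613119, minus strand, for the copy, with the differing base in capitals.
mt-Nd3: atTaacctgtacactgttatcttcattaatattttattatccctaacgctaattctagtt
Gm28438: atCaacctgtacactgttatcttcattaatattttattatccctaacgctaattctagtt
mt-Co2, a complex IV gene (chrM:7013-7696, plus strand), is identical to Gm28661 over all 681 bases of the copy. The copy as annotated ends before the last 3 bases of the gene, which are in capitals. The last 63 bases of mt-Co2 are chrM:7634-7696, and the last 60 of the copy are chr1:24614885-24614944, minus strand.
mt-Co2: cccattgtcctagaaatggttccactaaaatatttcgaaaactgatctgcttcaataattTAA
Gm28661: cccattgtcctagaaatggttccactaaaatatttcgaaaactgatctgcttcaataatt
Reads of 50 bases can rarely be placed between such pairs. kallisto, the quantifier named in the processing notes, compares reads in words of 31 bases by default. The share of a gene's 31-base words that also occur in nuclear transcripts was 100% for mt-Co2, 99.9% for mt-Co3, 99.5% for mt-Atp6, 98.9% for mt-Nd4l and 98.1% for mt-Nd3. It was 63.9% for mt-Co1, 62.8% for mt-Nd4, 16.8% for mt-Nd5 and 13.5% for mt-Nd2. It was 0% for mt-Nd1 and mt-Rnr1, 2.71% for mt-Rnr2, 6.55% for mt-Cytb, 7.36% for mt-Nd6 and 7.47% for mt-Atp8.

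Members also overlap each other. The last 43 bases of mt-Atp8 are the first bases of mt-Atp6, shown in capitals at the end of mt-Atp8 (chrM:7917-7969, plus strand).
mt-Atp8 end: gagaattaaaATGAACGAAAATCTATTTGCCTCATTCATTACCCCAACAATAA
mt-Nd6 (chrM:13552-14070) is the only protein gene on the minus strand. Whether the libraries keep strand is not given in the sources used here, so reads of mt-Nd6 and of RNA from the opposite strand cannot be told apart.

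Values are TPM, a relative transcript level corrected for transcript length and scaled to the same total in every library, and read depth is unknown. Each whole tumour sums to 1000000 TPM, and sorted libraries sum to between 996124 and 998055 because low genes are absent from that table. The mesothelial antigen Msln was at 149.9 to 315.6 TPM in all 15 sorted libraries. Of 14 mesothelial markers only 5, Msln among them, are listed for sorted cells, and these summed to 195.8 to 363 TPM. The leukocyte gene Ptprc (CD45) reached 12.9 and 7.48 TPM in SC sorted replicates 1 and 2, against at most 2.05 TPM in the other 13. Among whole tumours, 10 heart muscle markers summed to 5608 TPM in PL replicate 3 and to at most 31.4 TPM elsewhere. The 16 skeletal muscle markers summed to 83.2 to 1510 TPM (median 565.9) in the 5 SC tumours. They summed to 895.1 TPM in PL replicate 5 and 523.8 TPM in PL replicate 3. In the other 4 PL and all 5 IP tumours they summed to at most 18.3 TPM. Of the 16, 13 were called lower in IP than in SC tumours (3.64% of all genes) and 9 in PL than in SC (3.4%). Differences below are of mean log2(TPM + 1), given with their standard error (SE) and tested with limma across all genes of a table, with Benjamini-Hochberg adjusted p below 0.05 counted as a call.

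In sorted cells the mitochondrial genes held a smaller share of RNA at the peritoneal site. The share of TPM in IP cells was 3.74, 4.50, 3.42, 2.91 and 3.55% in replicates 1 to 5. It was 5.86, 5.77, 5.60, 5.88 and 6.63% in SC cells and 5.68, 5.13, 5.61, 5.84 and 6.37% in PL cells. Every IP value lay below every SC and PL value, while SC and PL values overlapped. Means were 3.63 ± 0.577% (SD, n = 5) in IP, 5.95 ± 0.397% in SC and 5.73 ± 0.449% in PL, so that IP was 2.32 percentage points below SC and 2.10 below PL. As a sum over members this share was given no test.

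The make-up of mitochondrial RNA differed as well. The 7 complex I genes made up 18.7, 18.6, 14.4, 14.0 and 13.6% of mitochondrial TPM in IP replicates 1 to 5. They made up 26.0 to 30.0% in SC and 24 to 30.2% in PL cells, with no overlap with IP. mt-Co1 alone took 20.9 to 26.7% in IP, 14.8 to 16% in SC and 14.5 to 16.6% in PL. All 5 IP libraries thus had both a smaller total and a larger part held by mt-Co1.

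**Figure D1:**
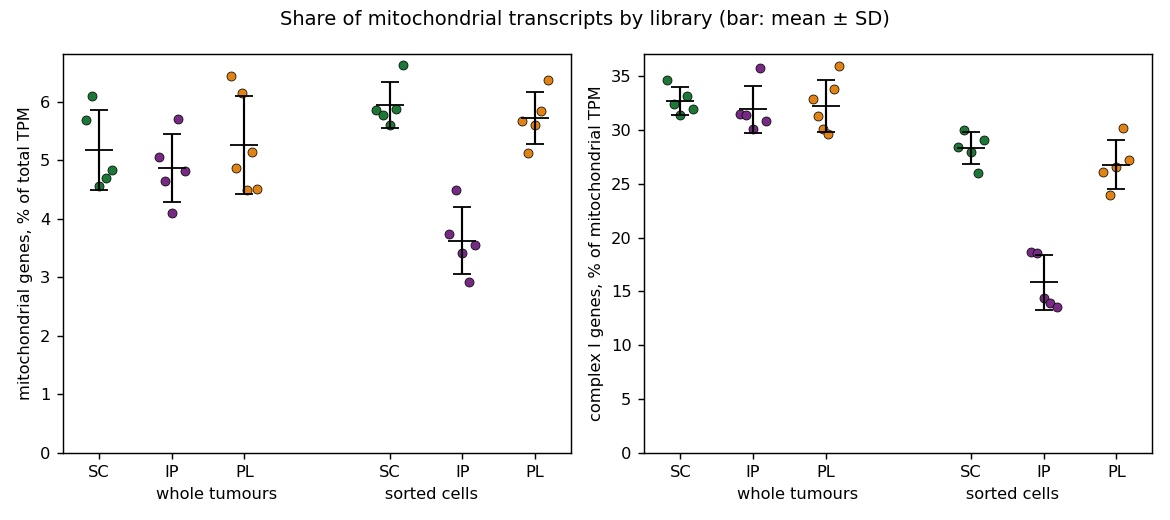
Left, mitochondrial genes as percent of all TPM; right, the 7 complex I genes as percent of mitochondrial TPM. Each point is a library, with mean ± SD; the 5 IP sorted libraries (2.91 to 4.50% on the left) lie below all other sorted libraries in both plots, and whole tumours of the 3 sites overlap.

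Gene by gene, 14 of 15 members were called lower in IP than in SC sorted cells and 0 higher, where 6.33% of the 12357 genes tested were called lower. Values did not overlap between the groups for 13 members, where 5.04% of all genes lay lower and 4.43% higher without overlap. Against the same IP libraries, 14 of 15 members were called higher in PL cells and 0 lower (4.45% of all genes were called higher), and 12 lay higher without overlap (3.6% of all genes, with 5.96% lower). The median difference over the 15 was −1.40 for IP minus SC, beside −0.03 over all genes, and 1.24 for PL minus IP, beside 0.004. The member not called was mt-Co1 in each, and both comparisons use the same 5 IP libraries. Between PL and SC cells 0 of 15 were called by limma (0.397% of all genes were called higher and 1.25% lower), and all 15 overlapped (1.07% of all genes lay higher and 2.04% lower without overlap). There 1 gene, mt-Atp8, had an unadjusted p of 0.0491 (adjusted p = 0.448), and differences ran from −0.22 to 0.29.

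**Figure D2:**
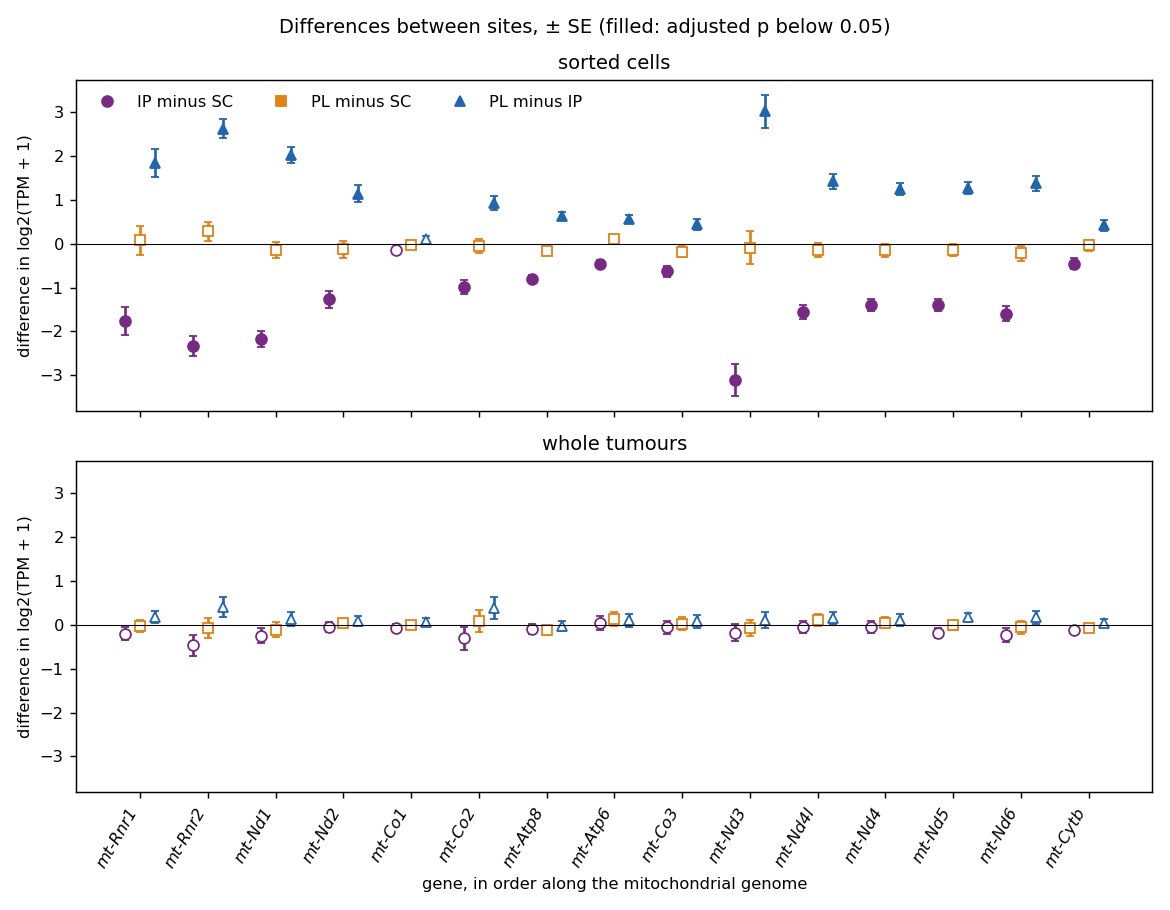
Difference in mean log2(TPM + 1) ± SE for the 15 members, in their order along the mitochondrial genome; filled symbols have adjusted p below 0.05. In sorted cells the IP minus SC differences run from −3.11 (mt-Nd3) to −0.15 (mt-Co1), and no symbol is filled for PL minus SC or in whole tumours.

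The rRNAs mt-Rnr1 and mt-Rnr2, the small and large RNAs of the mitochondrial ribosome, fell strongly. mt-Rnr2 (chrM:1094-2675, plus strand) measured 48.1, 26.9, 37.1, 41.8 and 31.4 TPM in IP replicates 1 to 5. It measured 186.8, 125.9, 181.3, 207.6 and 255.7 TPM in SC and 252.1, 350.5, 175.5, 247.7 and 159.9 TPM in PL cells. The lowest SC value was thus above the highest IP value, and the mean was 5.17-fold lower in IP than in SC (difference −2.33, SE 0.22, adjusted p = 7.91e-06). PL minus IP was 2.62 (SE 0.22, adjusted p = 3.60e-05).

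mt-Rnr1 (chrM:70-1024, plus strand) measured 43.5, 30.8, 41.9, 33.7 and 36.5 TPM in IP cells. SC cells had 125.0, 102.3, 105.3, 142.5 and 180.5 TPM, and PL cells 178.8, 341.3, 64.4, 115.6 and 98.2 TPM. All IP values were below all others, and PL cells were the most spread, with replicate 2 highest and replicate 3 lowest. IP minus SC was −1.77 (SE 0.32, adjusted p = 0.00311) and PL minus IP 1.84 (SE 0.32, adjusted p = 0.00514). Both rRNAs were low for molecules that are abundant in cells, together at most 0.0693% of TPM in any library. How RNA was selected for the libraries is not given in the sources used here, so the rRNA values compare libraries and do not give the amount in cells.

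The 7 complex I genes, which encode the membrane subunits of the NADH dehydrogenase, all fell in IP against SC cells and were all higher in PL than in IP cells. None of the 7 overlapped in either comparison. The differences for IP minus SC ran from −3.11 for mt-Nd3 to −1.27 for mt-Nd2, with a median of −1.56.

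mt-Nd3, given in every library because its difference was the largest seen, moved most. It measured 181.8, 329.2, 84.1, 50.7 and 83.9 TPM in IP replicates 1 to 5. It measured 1093, 1161, 827.0, 771.4 and 1307 TPM in SC and 1160, 740.4, 967.7, 791.6 and 1183 TPM in PL cells. IP replicates 1 and 2 stood above the other 3 IP libraries yet below every SC and PL library. The mean was 7.07-fold lower in IP than in SC (difference −3.11, SE 0.37, adjusted p = 8.19e-05), and PL minus IP was 3.02 (SE 0.37, adjusted p = 0.000653).

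mt-Nd1 (chrM:2751-3707, plus strand), which shares no 31-base word with a nuclear transcript, measured 879.8, 912.1, 598.1, 434.1 and 594.6 TPM in IP cells. SC cells had 2967, 3173, 2717, 2650 and 3343 TPM and PL cells 2422, 2075, 2573, 3361 and 3174 TPM. Here too IP replicates 1 and 2 were the highest of their group, and the groups were far apart. The mean was 4.34-fold lower in IP than in SC (difference −2.17, SE 0.18, adjusted p = 2.81e-06), and PL minus IP was 2.02 (SE 0.18, adjusted p = 4.40e-05).

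mt-Nd6, on the other strand of the circle, measured 382.6, 335.1, 336.8, 277.4 and 380.6 TPM in IP cells. SC cells had 953.4, 1127, 934.9, 995.7 and 1171 TPM and PL cells 779.4, 548.9, 1085, 1221 and 956.7 TPM. The IP libraries were close to each other and below all others. IP minus SC was −1.60 (SE 0.17, adjusted p = 2.28e-05) and PL minus IP 1.38 (SE 0.17, adjusted p = 0.000653).

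The other 4 complex I genes had smaller differences than these 3. mt-Nd4l averaged 1273 ± 393.4 TPM in IP and 3628 ± 376.9 in SC cells (difference −1.56), and mt-Nd5 355.6 ± 44.0 and 939.4 ± 83 TPM (−1.40). mt-Nd4 averaged 1192 ± 333.4 and 3049 ± 224.7 TPM (−1.40), and mt-Nd2 1823 ± 719.9 and 4155 ± 346.1 TPM (−1.27). Adjusted p values of these 4 ran from 1.24e-05 (mt-Nd5) to 0.000839 (mt-Nd2). mt-Nd4l and mt-Nd4 overlap on the circle, so part of their sequence is shared.

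mt-Cytb, the cytochrome b of complex III (chrM:14145-15288, plus strand), changed less. It measured 5957, 7854, 5165, 4223 and 5468 TPM in IP cells. SC cells had 7415, 7940, 7300, 7545 and 8331 TPM and PL cells 6804, 7024, 7285, 7786 and 8695 TPM. IP replicate 2 lay within the range of both other sites. IP minus SC was −0.46 (SE 0.12, adjusted p = 0.0272) and PL minus IP 0.42 (SE 0.12, adjusted p = 0.0443). The call against SC was lost without SC replicate 1, 4 or 5 or IP replicate 3, 4 or 5 (adjusted p from 0.0500 to 0.0698), and under median-of-ratios scaling (adjusted p = 0.1) and quantile normalization (0.0714). The call against PL was lost in 12 of the 15 fits that left out 1 library, all but those without IP replicate 1 or 2 or PL replicate 1.

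Of the complex IV genes, which encode the catalytic core of cytochrome c oxidase, mt-Co1 was the exception among all 15. It measured 8153, 9385, 8729, 7748 and 7630 TPM in IP cells. SC cells had 9201, 8530, 8949, 9279 and 10021 TPM and PL cells 8792, 7999, 9155, 9647 and 9234 TPM. The 3 groups overlapped. IP minus SC was −0.15 (SE 0.07, adjusted p = 0.185) and PL minus IP 0.11 (SE 0.07, adjusted p = 0.324). mt-Co2 averaged 3504 ± 974.3 TPM in IP, 6732 ± 651.2 in SC and 6502 ± 1006 in PL cells, a fall of 0.98 on the log2 scale against SC (SE 0.16, adjusted p = 0.00146). mt-Co3 averaged 4067 ± 854.5, 6188 ± 418.3 and 5467 ± 700.2 TPM, and fell by 0.63 (SE 0.12, adjusted p = 0.0049). PL minus IP was 0.92 for mt-Co2 (adjusted p = 0.00489) and 0.44 for mt-Co3 (adjusted p = 0.0339). The mt-Co3 call against PL was lost without IP replicate 3 or 4 or PL replicate 1, 4 or 5 (adjusted p from 0.0567 to 0.0791).

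Both ATP synthase genes fell. mt-Atp6, which encodes the proton channel subunit, measured 7296, 7717, 7008, 6738 and 8601 TPM in IP cells. SC cells had 10087, 8683, 9970, 11413 and 11546 TPM and PL cells 10697, 10434, 11514, 10040 and 12863 TPM. The highest IP value was just below the lowest SC value. IP minus SC was −0.47 (SE 0.09, adjusted p = 0.00511, but 0.0693 with median-of-ratios scaling) and PL minus IP 0.57 (SE 0.09, adjusted p = 0.00375). mt-Atp8 averaged 1162 ± 133.9 TPM in IP, 2023 ± 153.3 in SC and 1792 ± 106.1 in PL cells, with IP minus SC at −0.80 (SE 0.08, adjusted p = 1.58e-05) and PL minus IP at 0.63 (SE 0.08, adjusted p = 0.000869).

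**Figure D3:**
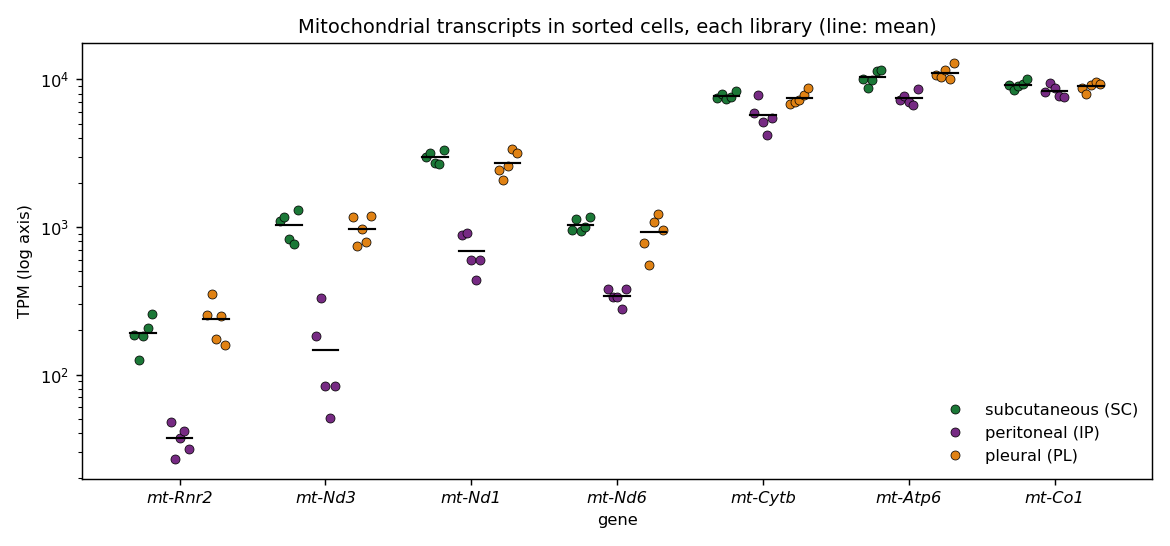
TPM of 7 members in each sorted library, on a log axis, with a line at the mean of each site. The IP libraries lie below all SC and PL libraries for mt-Rnr2, mt-Nd3, mt-Nd1, mt-Nd6 and mt-Atp6, and overlap them for mt-Cytb and mt-Co1.

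Less abundant members tended to differ more, though level went along with gene class. Set in order of mean TPM in the PL sorted libraries, which do not enter the IP minus SC difference, the 5 highest members (mt-Atp6, mt-Co1, mt-Cytb, mt-Co2 and mt-Co3) had differences of −0.98 to −0.15. The other 10 had −3.11 to −0.80, the smallest being that of mt-Atp8. The 5 highest all belong to complexes III to V, and the complex I genes and rRNAs are all among the other 10. Level and gene class thus cannot be told apart. Across the 15 genes Spearman's rank correlation between that mean and the difference was 0.814 (Pearson's r with the log2 level 0.693). The rank correlation of the difference was 0.468 with the percentage of G and C bases. It was 0.409 with the share of 31-base words found in nuclear transcripts and 0.079 with length. The genes are not independent replicates, since all come from the same libraries and partly the same precursors, so these are descriptions.

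The split of reads between members and copies moved some single values. In whole tumours the copy's part of the summed TPM of mt-Co2 and Gm28661 ranged from 37.6 to 74.7%, and in sorted cells from 3.43 to 35.5%. For mt-Co3 and Gm28437 it was 4.32 to 40.7% in whole tumours and at most 0.897% in sorted cells. For mt-Nd3 and Gm28438 it reached 19.0% in whole tumours, while sorted libraries ranged from 0.001 to 45.6%. The copies of mt-Nd4 (Gm28439) and mt-Nd4l (Gm10222) are listed at 0 in all whole tumours and are not in the sorted table, although their sequences are identical to parts of those genes.

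When each copy was added to its member, weighted by length, relative spread within a site fell in whole tumours for mt-Co2, mt-Atp6 and mt-Co3. The coefficient of variation within sites went from 27.2 to 12.9% for mt-Co2, from 19.1 to 10.5% for mt-Atp6 and from 16.9 to 10.4% for mt-Co3. It hardly moved for mt-Co1 (10.1 and 10.3%). In sorted cells the calls stayed: with its copy, IP minus SC was −2.83 for mt-Nd3 (adjusted p = 1.27e-05), −1.14 for mt-Co2 (adjusted p = 0.000278), −0.63 for mt-Co3 (adjusted p = 0.00463) and −0.49 for mt-Atp6 (adjusted p = 0.00192). mt-Co1 with Gm29216, a copy of the last 492 bases of the gene with 6 differing bases, gave −0.10 (adjusted p = 0.36). Gm28661, Gm28437, Gm28438, Gm10925 and Gm29216 together held 0.536 to 1.18% of TPM in sorted cells and 1.00 to 1.88% in whole tumours, and the 3 sites overlapped in both.

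**Figure D4:**
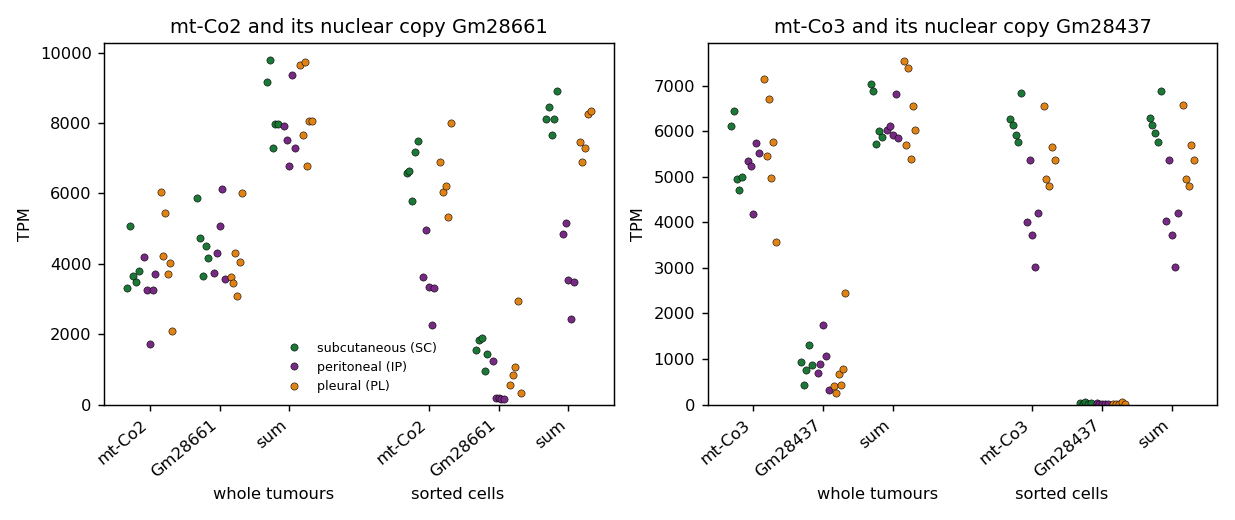
TPM of mt-Co2 and mt-Co3, of their nuclear copies and of the length-weighted sum in each library, coloured by site (points only, no means drawn). In whole tumours the mt-Co2 sum spreads less than either part only relative to its mean, not in TPM. In sorted cells the IP sum of mt-Co2 stays below SC and PL, while that of mt-Co3 overlaps PL.

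In whole tumours the mitochondrial genes overlapped between all 3 sites. The share of TPM was 5.70, 6.10, 4.56, 4.69 and 4.83% in SC, and 5.05, 4.65, 4.10, 5.70 and 4.82% in IP replicates 1, 2, 3, 4 and 7. In PL tumours it ran from 4.50 to 6.45%. All 3 groups overlapped, with means of 5.18 ± 0.68% (n = 5), 4.87 ± 0.586% (n = 5) and 5.27 ± 0.838% (n = 6). PL replicate 3, the tumour with heart muscle RNA, had 6.14%, and PL replicate 1, where the heart and skeletal muscle markers summed to 4.89 and 12.3 TPM, had 6.45%. The part of muscle RNA in these shares was not tested. Whole tumours mix cancer cells with host cells, and fewer cells of a type and less RNA per cell cannot be told apart.

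By limma 0 of 15 members were called in PL against SC tumours (9.4% of 15054 genes called higher, 3.4% lower), in IP against SC (8.52% higher, 3.64% lower) or in PL against IP (0.0266% each way). None had an unadjusted p below 0.05 in these 3 comparisons, and every member's values overlapped between sites. Of all genes, 5.83% lay higher and 1.93% lower without overlap in PL against SC, 9.07% and 3.47% in IP against SC, and 0.465% and 0.671% in PL against IP. The differences ran from −0.12 to 0.13 for PL minus SC, from −0.47 to 0.04 for IP minus SC and from −0.03 to 0.40 for PL minus IP. mt-Rnr2 had the largest difference between IP and SC. It measured 63.8, 59.7, 47.0, 126.0 and 79.9 TPM in IP and 123.0, 127.0, 77.3, 88.0 and 88.3 TPM in SC tumours, where PL tumours ran from 67.5 to 128.5 TPM with a median of 94.9. IP replicate 4 was the highest of its group, and IP minus SC was −0.47 (SE 0.23, adjusted p = 0.187). Without IP replicate 4 it was −0.67 with an adjusted p of 0.0407, the only member called under any alternative run in whole tumours.

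The genes that fell most in sorted IP cells had overlapping values in whole tumours. mt-Nd3 averaged 1482 ± 323.6 TPM in SC, 1323 ± 357.7 in IP and 1410 ± 273.5 in PL tumours. mt-Nd1 averaged 3435 ± 711.9, 2923 ± 764.3 and 3161 ± 589.2 TPM, mt-Nd6 1657 ± 223.7, 1436 ± 347.0 and 1601 ± 292.1 TPM, and mt-Rnr1 133.9 ± 21.0, 117.5 ± 28.3 and 131.2 ± 19.7 TPM. mt-Co1 averaged 8799 ± 648.2, 8405 ± 380.9 and 8875 ± 1350 TPM, mt-Cytb 5938 ± 708.9, 5461 ± 516.8 and 5665 ± 697.1 TPM, and mt-Atp6 7863 ± 1605, 8010 ± 1251 and 8632 ± 1790 TPM. No call was made for any of these. The tables were normalized separately and cover different material, so the IP difference in sorted cells was not tested against that in whole tumours.

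All 22 tRNAs, which are 59 to 75 bases long in the annotation, are listed at 0 in all 16 whole tumours and are absent from the sorted table. A value of 0 for molecules that every cell makes shows only that they were not quantified, and nothing can be said of tRNA levels.

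No nuclear subunit of the respiratory complexes was called lower in IP than in SC sorted cells. In sorted cells 77 nuclear genes listed as subunits of complexes I to V were tested, with Cox7a2l counted under complex IV. Of these, 3 were called higher and 0 lower in IP against SC (4.75 and 6.33% of all genes), with differences between −0.14 and 0.41. In PL against IP 5 were called lower and 0 higher (5.51% of all genes were called lower there). By complex, the calls for IP against SC were 1 of 36 in complex I, 0 of 4 in complex II, 0 of 9 in complex III, 1 of 13 in complex IV and 1 of 15 in complex V. Ndufv3, a complex I subunit, averaged 183.3 ± 31.2 TPM in IP and 142.3 ± 10.2 in SC (difference 0.35, adjusted p = 0.0408). Cox7a2l, a gene related to complex IV subunits that acts in supercomplex assembly, rose by 0.21 (adjusted p = 0.0288), and Atp5h, of the ATP synthase stalk, by 0.24 (adjusted p = 0.033). Uqcrh of complex III averaged 462.2 ± 47.5 and 459.2 ± 22.4 TPM, and Sdhc of complex II 208.1 ± 20.8 and 224.6 ± 17.0 TPM, neither called.

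Nuclear genes that replicate, transcribe, process and translate the mitochondrial genome were higher in IP cells where they were called. Of 129 tested, 11 were called higher and 0 lower in IP against SC, and 24 were called lower and 0 higher in PL against IP, beside 4.75% of all genes called higher in the first comparison and 5.51% lower in the second. For IP against SC these were 1 of 17 genes of transcription and DNA replication, 3 of 33 of RNA processing and decay, 5 of 49 proteins of the large and 2 of 30 of the small subunit of the mitochondrial ribosome. Twnk, the DNA helicase of the mitochondrion, averaged 11.9 ± 1.52 TPM in IP, 8.76 ± 2.05 in SC and 7.60 ± 0.221 in PL cells (IP minus SC 0.41, adjusted p = 0.0489; PL minus IP −0.57, adjusted p = 0.0149). Polrmt, the mitochondrial RNA polymerase, averaged 13.4 ± 1.48 TPM in IP and 8.48 ± 0.686 in PL cells (PL minus IP −0.60, adjusted p = 0.0297). Supv3l1, a helicase of mitochondrial RNA decay, averaged 16.3 ± 1.63 TPM in IP, 11.0 ± 0.855 in SC and 11.1 ± 1.38 in PL cells (IP minus SC 0.52, adjusted p = 0.0056; PL minus IP −0.51, adjusted p = 0.0103). Gtpbp3, which modifies mitochondrial tRNAs, followed the same order, with 25.3 ± 2.35, 17.9 ± 2.48 and 15.9 ± 1.69 TPM (IP minus SC 0.48, adjusted p = 0.00981). Of the ribosomal proteins, Mrpl17 averaged 159.6 ± 16.5, 121.8 ± 11.8 and 114.5 ± 10.3 TPM (IP minus SC 0.39, adjusted p = 0.0128). The counts moved with the settings: the 11 ranged from 4 to 38 and the 24 from 3 to 41, while no alternative gave a call in the opposite direction in either.

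**Figure D5:**
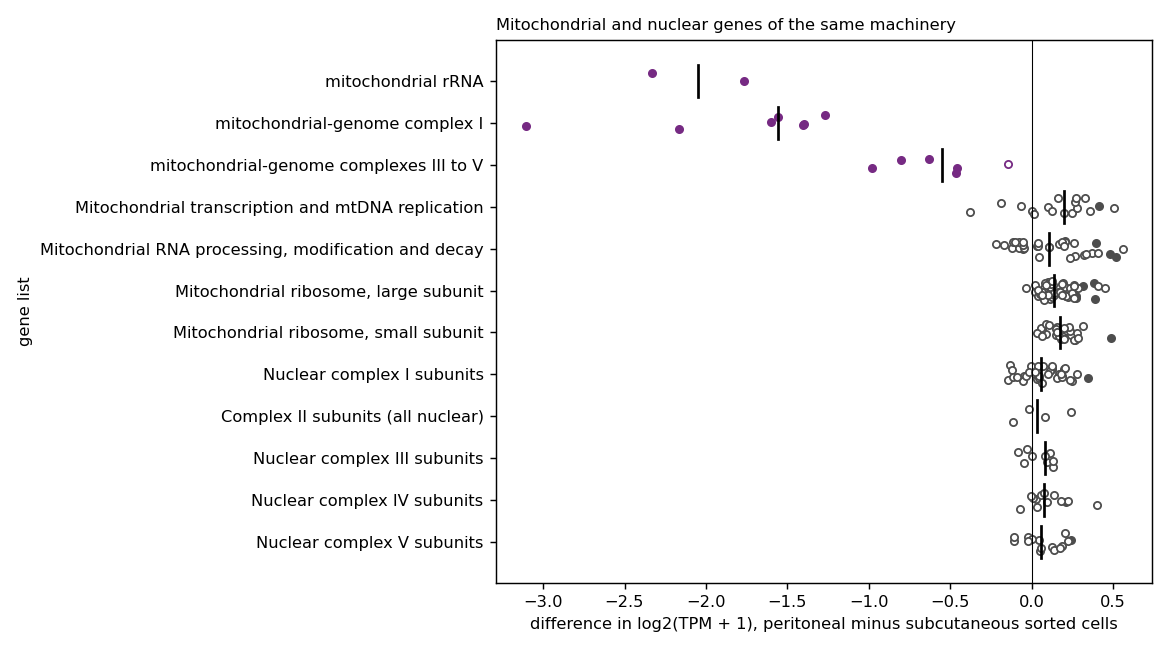
Difference in mean log2(TPM + 1), IP minus SC, in sorted cells, for each gene of 3 groups of mitochondrial-genome members (top, purple) and 9 lists of nuclear genes (grey); filled points have adjusted p below 0.05 and black bars are medians, and vertical scatter has no meaning. The purple points lie between −3.11 and −0.15, and the grey ones between −0.38 and 0.56.

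Regulators of organelle number and genes of its turnover were tested as well. Of 8 biogenesis regulators tested 0 were called by limma for IP against SC, with 40.3 ± 7.81 and 50.3 ± 3.97 TPM for Yy1. Of 14 genes of turnover, fission and fusion 2 were higher, the protease Clpp (difference 0.26, adjusted p = 0.0307) and the prohibitin Phb2 (0.23, adjusted p = 0.0498), and 0 lower. Over all genes 4.75% were higher and 6.33% lower in IP than in SC sorted cells. In PL against IP both lists had 0 calls (4.45% of all genes were higher and 5.51% lower). Bnip3l, a receptor for the removal of mitochondria by autophagy, was higher in PL than in SC sorted cells (300.4 ± 35.7 against 208.0 ± 18.9 TPM, difference 0.52, adjusted p = 0.0234). In whole tumours 4 of 14 turnover genes were higher in PL than in SC and 3 of 14 in IP than in SC, with 0 lower (9.4% and 8.52% of all genes were higher), among them Bnip3 (1.71, adjusted p = 0.00844, and 1.17, adjusted p = 0.0493) and Bnip3l (0.81, adjusted p = 0.00416, and 0.66, adjusted p = 0.015). In PL against SC sorted cells the 77 listed subunits and the 129 expression genes had 0 calls (0.397% of all genes were higher and 1.25% lower). In whole tumours 81 listed subunits and 131 expression genes were tested. Of these, 0 and 3 were higher and 2 and 8 lower in PL than in SC. In IP against SC 2 and 9 were higher and 1 and 1 lower, and 0 were called between PL and IP. Over all genes 9.4% were higher and 3.4% lower in PL than in SC, and 8.52% and 3.64% in IP than in SC.

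Other measures moved with the IP sorted libraries too. Of 14 immediate early genes, which rise when live cells are handled, 5 were lower and 0 higher in IP than in SC cells, Egr2 most (5.26 ± 2.75 against 31.4 ± 11.9 TPM, difference −2.37, adjusted p = 0.000816), and 4 were higher and 0 lower in PL than in IP. Over all genes 6.33% were lower and 4.75% higher in IP than in SC, and 4.45% were higher in PL than in IP. Their summed level was 3651 to 7114 TPM in IP, 3549 to 10010 in SC and 6714 to 8435 in PL cells. In whole tumours, which were not sorted, the same list summed to between 498.2 and 669.2 TPM. Of 16 hypoxia genes 3 were lower and 1 higher in IP than in SC, the higher one being Car9, and 4 were higher in PL than in IP.

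Endothelial and fibroblast markers were among the genes lower in IP than in SC sorted cells, where 6.33% of all genes were lower. Of the leukocyte markers 1 of 9 tested was lower, of the endothelial markers 3 of 4 and of the fibroblast markers 4 of 8, with 0 higher in each. Summed endothelial markers were 2.80 to 8.27 TPM in IP, 13.6 to 21.3 in SC and 2.93 to 14.3 in PL cells. Summed leukocyte markers were 142.8 to 172.8, 128.1 to 457.9 and 123.9 to 173.2 TPM, and summed macrophage markers 47.7 to 132.1, 40.8 to 1273 and 42.1 to 138.4 TPM. Summed fibroblast markers were 2574 to 4415, 3638 to 6228 and 3246 to 4161 TPM, where whole tumours had 3637 to 6597 TPM. No T or natural killer cell marker is in the sorted table. Of the other markers tested, 0 of 10 for macrophages, 0 of 2 for neutrophils, 0 of 4 for erythroid cells, 0 of 2 for skeletal and 0 of 1 for heart muscle were called by limma in IP against SC, Fabp4, the adipocyte marker tested, was lower (difference −1.98, adjusted p = 0.00369), and of 5 mesothelial markers 2 were higher and 1 lower. Without SC replicates 1 and 2, which held the leukocyte RNA, 13 of 15 members were still called lower in IP. The part of cell handling, hypoxia and other cells in the mitochondrial differences was not tested.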

How the data were processed

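RNA of whole tumours and of sorted cells was sequenced as 50-base single-end reads, per the labels' protocols, with RNeasy Plus Mini (tumours) or Plus Micro (sorted cells) extraction. The authors deposited TPM per gene for each table, made with kallisto on GRCm39 per the submitters' processing notes. Not given in the sources used here were the kallisto version, annotation release, strandedness and filters. Read depth is unknown, so no counting interval can be given, and only the number of libraries sets the precision.

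Samples were grouped by tumour site from the labels. log2(TPM + 1) was compared with limma 3.58.1 in R 4.3.3, with a trend in the empirical Bayes step, 1 fit per table holding its 3 sites, genes of at least 1 TPM in at least 5 libraries, and Benjamini-Hochberg adjustment over all 15054 (whole) or 12357 (sorted) genes. Left out were 17 entries of the sorted cell values that had dates as names. No 2 libraries were identical. Shares of TPM were described without a test. The script was tested on simulated data. Sequences, lengths and 31-base words came from GENCODE M21 (GRCm38).

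The mitochondrial members and the lists (nuclear mitochondrial genes, immediate early, hypoxia and cell markers) were chosen with earlier results of these data known. By rule, every protein and rRNA member was named, 7 were to be given in every library, to which mt-Nd3 was added after its values were seen, and of each list up to 4 called genes with the largest difference and at least 5 TPM, or else the most abundant, could be named.

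Alternatives were a pseudocount of 0.1, no filter or a filter of 5 TPM, median-of-ratios and quantile scaling, rescaling without mitochondrial, haemoglobin and antibody genes or without the rRNAs, robust empirical Bayes, fits of the compared pair of sites alone, arrayWeights, a replicate block, adjusted p below 0.01, other denominators for shares, leaving out each library or named pairs, and, chosen after seeing the data, adding nuclear copies to their members.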

Additional observations from a re-analysis of the deposited data

Results flagged for a closer look

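Within groups of 4 to 10 libraries, values whose gap to the nearest other value was wide for the group's range (Dixon's 95% limit) were looked for in 180 groups, and 15 were found, where chance gives about 1 in 20 groups. Of the members, mt-Nd2 stood out in SC sorted replicate 5 at 4768 TPM, and the mitochondrial share was highest there too, at 6.63%. mt-Co2 stood out in whole SC replicate 2, at 5071 TPM. The complex I part of mitochondrial TPM was 35.8% in whole IP replicate 4, the library without which mt-Rnr2 was called.

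The other 11 values were nuclear copies. In PL sorted replicate 4 the copies that were added to members together held 1.18% of TPM, with Gm28661 at 2935 TPM, Gm10925 at 3281 TPM, Gm28438 at 416.9 TPM and Gm28437 at 44.3 TPM. In IP sorted replicate 1 Gm28661 was at 1230 TPM and Gm28437 at 34.3 TPM. Gm29216 was at 5620 TPM in SC sorted replicate 4. In whole tumours Gm10925 was at 4863 TPM in SC replicate 4 and at 5198 TPM in PL replicate 7, where Gm28437 was at 2454 TPM. The cause was not tested.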

How the results depend on the processing

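The number of members called lower in IP than in SC sorted cells was 14, and 12 to 14 over 30 alternatives (13 to 14 when 1 library was left out); for PL against IP it was 14, and 12 to 14 (12 to 14). The counts of 0 in the other 4 comparisons stayed at 0, except that IP against SC whole tumours gave 0 to 1 when 1 library was left out, the 1 being mt-Rnr2 without IP replicate 4. No called value changed sign, while the untested PL minus SC share in whole tumours, 0.0909 percentage points, ran from −0.145 to 0.321. Of 28 calls, those of mt-Cytb (11 of 30 alternatives for IP against SC, 18 for PL against IP), mt-Co3 (8, PL against IP) and mt-Atp6 (1, IP against SC) were lost in some, and all others were kept in all. The IP minus SC share in sorted cells stayed between −2.59 and −2.15 percentage points. Counts for nuclear lists moved more: of 129 expression genes 11 were higher in IP than in SC cells, 38 under quantile normalization and 4 at the fewest.

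With the replicate number as a block, 14 members were called for IP against SC and 13 for PL against IP sorted cells, where mt-Cytb was lost (adjusted p = 0.0511), and 0 elsewhere. Numbers are shared between different mice, and 3 of 16 whole and 5 of 15 sorted libraries correlated best with their own number. With site means taken out, correlations between same-numbered libraries of different sites ran from −0.377 to 0.256 in whole tumours. In sorted cells they ran from −0.299 to 0.349. Whether same-numbered libraries shared a step of handling was not tested. The block used the mouse numbers of the titles, and library-name numbers, which differ for 3 whole IP tumours, were not run.

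TPM is relative, read depth is unknown, and 5 members share nearly all their 31-base words with nuclear transcripts. Each library comes from 1 mouse. The titles give the same mouse numbers to most sorted and whole libraries of a site. Whether sorted and whole samples came from the same tumours is not given in the sources used here.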

Other observations

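Gm10221, a predicted gene on the list of recalled nuclear copies, was called higher in IP than in SC sorted cells, with 9.07 ± 6.72 TPM in IP, where libraries ran from 0.000206 to 16.1 TPM, and at most 0.000117 TPM in SC (difference 2.80, SE 0.75, adjusted p = 0.0265). Of the 8 genes of that list tested, 1 was higher and 3 lower in IP than in SC, beside 4.75% and 6.33% of all genes. Gm28661 was among the lower ones, at 382.2 ± 474.0 against 1531 ± 374.8 TPM (difference −2.55, adjusted p = 0.0108). In whole tumours 0 of 7 were called by limma for IP against SC (8.52% of all genes were higher and 3.64% lower). The share of mitochondrial genes was also taken with Gm28661, Gm28437, Gm28438, Gm10925 and Gm29216 added. It was 4.42 ± 0.707% of TPM in IP, 6.91 ± 0.396% in SC and 6.48 ± 0.536% in PL sorted cells, again without overlap between IP and the other sites.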
